A study of Homo sapiens with 8 samples.

Results

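Replication-dependent histone genes code for the H1, H2A, H2B, H3 and H4 proteins that package newly made DNA. They are copied in S phase, stand in dense clusters on chromosomes 6 and 1, and mostly give mRNAs that end in a stem-loop in place of a poly(A) tail. The stem-loop is bound by SLBP and cut by a dedicated machinery, and the mRNAs decay when DNA synthesis stops, so their level follows how many cells of a dividing culture are in S phase. In cell lines of the prostate this makes them a readout of the replicating share of the culture as well as of the genes themselves, and in total RNA from bulk cells fewer cells in S phase and less histone RNA per cell cannot be told apart.

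The genes were taken from arrays of BPH-1 and WPMY-1 cells, by the rule that a transcript cluster (the group of probes summarised into 1 value) is annotated to 1 symbol and that this symbol belongs to a clustered histone gene. This found 35 of the 67528 clusters, for 34 symbols, since H2BC11 is read by 2 clusters. There were 6 H1, 10 H2A, 17 H2B and 2 H4 clusters. No H3 cluster met the rule because each H3 cluster was annotated to several genes. No pair of the 35 clusters held the same 8 values. Of the 35, 28 lay on chromosome 6 and 7 on chromosome 1, and 2 (H2BC20P and H2AC2P) are pseudogenes. A further 35 clusters were annotated to several histone genes of 1 type and are described apart. Another 3 clusters listed a histone gene among several genes of mixed kind. Of the 34 symbols, 8 were also listed for a cluster of several genes, so their probes may be shared, which was not tested.

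The samples were WPMY-1 cells, a line of prostate stromal myofibroblasts, with RWF extract or with vehicle, and BPH-1 cells, an epithelial line from benign prostatic hyperplasia, with RWF extract or with vehicle. RWF is an extract of the root bark of Rauwolfia vomitoria. It was given at 250 μg/ml for 24 h, and each of the 4 groups had 2 arrays. Each line stands for 1 source, and the lines were kept in different media (DMEM for WPMY-1, RPMI1640 for BPH-1), so line and medium cannot be told apart. Values are log2 intensities after RMA, as deposited, with no detection call, so a low value can be background. Levels of different clusters are not compared here, and mean values served only to pick clusters to name or to keep. Differences were tested with limma, and a cluster was called when its p-value, adjusted by Benjamini-Hochberg over all 67528 clusters, was under 0.05. No label states that arrays of 1 group came from separate cultures, so the p-values cover the spread among these arrays alone, and precision is limited by their number. The lines matched their labels: 10 of 10 measured epithelial markers were lower and 12 of 12 stromal markers higher in vehicle WPMY-1 than in vehicle BPH-1 cells. With RWF in WPMY-1 cells, 4 of 12 stromal markers were lower (0.905% of all clusters were), with a list median of -0.32, and 1 of 10 epithelial markers, CLDN1, was higher (0.64, limma adjusted p = 0.015; 0.625% of all clusters were higher), with a list median of 0.15. The part of these marker shifts in the histone differences was not tested.

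Promoters of the genes that the results turn on are printed first, because histone genes of 1 type share short promoter motifs. The windows run from 250 bases before to 50 bases from the transcription start in RefSeq, build GRCh38.p14, and 30 of the 34 symbols had one. Capitals mark, in either orientation, the octamer ATTTGCAT, which binds POU2F1 in H2B promoters, the pentamer CCAAT, and the TATA box letters TATAAA. H1-4 and H2BC14 were called with RWF in WPMY-1 cells, and H2BC21 and H2AC6 carried the highest RWF differences among H2B and H2A clusters in BPH-1 cells. In order, the windows are chr6:26156079-26156378 on the plus strand, chr6:27814772-27815071 on the plus strand, chr1:149886633-149886932 on the minus strand and chr6:26123922-26124221 on the plus strand.
H1-4: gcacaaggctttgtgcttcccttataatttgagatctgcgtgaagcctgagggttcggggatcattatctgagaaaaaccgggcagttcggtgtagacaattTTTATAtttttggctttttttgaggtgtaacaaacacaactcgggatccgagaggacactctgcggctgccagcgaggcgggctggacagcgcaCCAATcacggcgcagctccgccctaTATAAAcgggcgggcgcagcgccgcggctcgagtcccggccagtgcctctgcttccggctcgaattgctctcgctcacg
H2BC14: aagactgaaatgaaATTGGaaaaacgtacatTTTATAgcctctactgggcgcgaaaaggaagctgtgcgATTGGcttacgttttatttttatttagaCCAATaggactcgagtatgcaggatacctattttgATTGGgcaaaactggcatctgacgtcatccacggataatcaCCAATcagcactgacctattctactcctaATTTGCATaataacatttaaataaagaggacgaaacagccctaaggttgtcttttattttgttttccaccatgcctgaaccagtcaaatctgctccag
H2BC21: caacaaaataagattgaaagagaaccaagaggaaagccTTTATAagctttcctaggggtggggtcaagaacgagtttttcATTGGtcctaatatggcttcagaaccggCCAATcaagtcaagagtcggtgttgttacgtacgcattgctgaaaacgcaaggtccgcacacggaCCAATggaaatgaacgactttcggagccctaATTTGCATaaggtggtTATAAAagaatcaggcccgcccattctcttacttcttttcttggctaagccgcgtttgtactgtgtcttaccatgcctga
H2AC6: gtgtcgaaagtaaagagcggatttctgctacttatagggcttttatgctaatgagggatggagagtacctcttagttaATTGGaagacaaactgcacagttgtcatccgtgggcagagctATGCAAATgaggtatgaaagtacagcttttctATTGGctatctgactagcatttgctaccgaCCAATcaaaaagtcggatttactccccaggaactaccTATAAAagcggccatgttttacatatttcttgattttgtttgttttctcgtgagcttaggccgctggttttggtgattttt
The octamer was found in the windows of H2BC14, H2BC21 and H2AC6, starting 48, 46 and 130 bases before the transcription start, and not in that of H1-4. Of the 15 H2B windows 11 held it (73.3%), as did 6 of 8 H2A windows (75%), against 0 of 6 H1 windows and 1.77% of the 35116 promoters in the table. Windows of neighbours on opposite strands can overlap, so the shares of the types are not independent. The octamers of H2AC20, H2AC14 and H2AC1 are the same sites as those of H2BC21, H2BC14 and H2BC1, counted under both types. Other motifs in a shared stretch are counted in both windows too. CCAAT stood in 29 of 30 windows, against 34.6% of all promoters, and TATAAA in 20 of 30, against 11.5%. The letters of the octamer hold neither of the other motifs. H4C3, HIST1H2AH (named H2AC12 in RefSeq), H2BC20P and H2AC2P had no window.

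In WPMY-1 cells, 2 of the 35 histone clusters fell with RWF and none rose. They were H2BC14, a core histone gene of the H2B type, and H1-4, which codes for a main somatic linker histone. Over all clusters 0.905% fell and 0.625% rose in this comparison. The median difference of the 35 clusters was -0.14 on the log2 scale, against 0.04 over all clusters, and 26 of 35 differences were below 0. This median was -0.20 with median centring (29 of 35 below 0) and -0.08 with quantile normalization (28 of 35), so its size depended on the scaling and its sign did not. The histone clusters and all clusters are unlike sets. Of the 35 histone clusters, 29 had a mean above the median of all values, and 42204 of the 67528 clusters had no symbol. The part of brightness or annotation in the gap was not tested, and the same holds for later comparisons with all clusters.

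H2BC14 gave 7.64 and 7.63 on the RWF arrays of WPMY-1 cells, against 8.29 and 8.28 on the vehicle arrays. The pairs lay far apart with almost no spread inside a pair. The fall was 1.57-fold (log2 difference -0.65, SE 0.11, limma adjusted p = 0.030). In BPH-1 cells the same cluster gave 8.81 and 8.52 with RWF, against 8.66 and 8.78 with vehicle, and the groups overlapped. H1-4 gave 10.94 and 10.85 with RWF in WPMY-1 cells, against 11.28 and 11.40 with vehicle. Both RWF arrays were below both vehicle arrays, and the fall was 1.36-fold (log2 difference -0.44, SE 0.08, limma adjusted p = 0.041). In BPH-1 cells H1-4 gave 11.53 and 11.51 with RWF and 11.64 on both vehicle arrays, a log2 difference of -0.12 that did not pass the test.

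Both calls rested on the full set of arrays. H2BC14 kept its call only without BPH-1 RWF replicate 1 or replicate 2, and lost it without any 1 of the other 6 arrays, with differences between -0.66 and -0.65 and limma adjusted p-values up to 0.13. H1-4 lost its call without any 1 of the 8 arrays, with differences between -0.51 and -0.38 and limma adjusted p-values between 0.069 and 0.15. With WPMY-1 fitted alone or with quantile normalization neither was called, at limma adjusted p-values of 0.053 and 0.051 for H2BC14.

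**Figure D1:**
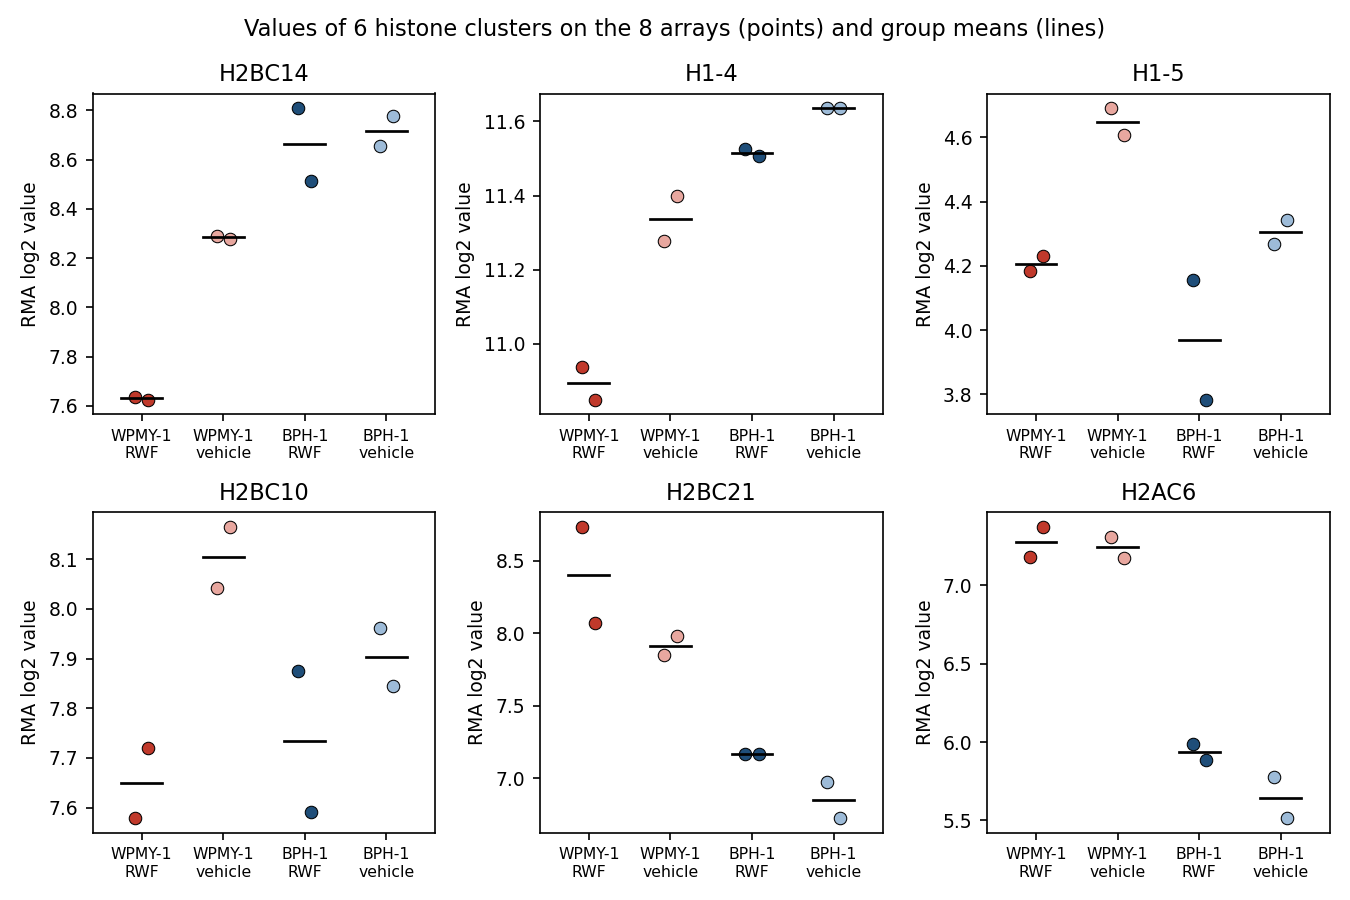
RMA log2 value (vertical axis, a separate range in each panel that does not start at 0) of H2BC14, H1-4, H1-5, H2BC10, H2BC21 and H2AC6 on the 8 arrays. Points are arrays and lines are means of the 2 arrays of a group. The WPMY-1 RWF arrays of H2BC14 sit at 7.64 and 7.63, below the vehicle arrays at 8.29 and 8.28.

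Most other clusters in WPMY-1 cells had negative differences that did not pass the adjustment. Counting H2BC14 and H1-4, at an unadjusted p under 0.05 limma left 10 of 35 with a negative difference (8.36% over all clusters) and 2 with a positive one (10.7%). Both RWF arrays were below both vehicle arrays in 21 of 35 clusters, against 19.2% over all clusters, and above both in 5, against 31.4%. The remaining 9 overlapped. At the 1.3-fold cutoff with no test, 4 clusters were lower (4.16% of all) and 1 higher (2.76%). The lower ones were H2BC14, H1-4, H1-5 and H2BC10, and the higher one was H2BC21.

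Among the linker histones, which bind DNA where it enters and leaves the nucleosome, 4 of 6 differences in WPMY-1 cells were negative, with a median of -0.21. H1-5 gave 4.18 and 4.23 with RWF, against 4.69 and 4.61 with vehicle (log2 difference -0.44, SE 0.12, limma adjusted p = 0.11). The RWF arrays were the lower pair, and the same held in BPH-1 cells. There H1-5 gave 4.16 and 3.78 with RWF, against 4.27 and 4.34 with vehicle (log2 difference -0.33, SE 0.12, limma adjusted p = 0.73). The mean of H1-5 over the 8 arrays, 4.28, was under the median of all values, 4.55, so background can be part of its values. H1-2, another somatic linker histone, differed by -0.25 in WPMY-1 cells with both RWF arrays, at 7.79 and 7.70, below vehicle arrays at 8.11 and 7.89, and by 0.03 in BPH-1 cells. H1-6, the linker histone of the testis, had the highest H1 difference in both lines, 0.18 in WPMY-1 and 0.10 in BPH-1 cells. H1-1 and H1-3 had differences of 0.02 and -0.17 in WPMY-1 cells, and their arrays overlapped.

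The H2B clusters, whose protein pairs with H2A in the nucleosome core, had 15 of 17 negative differences in WPMY-1 cells and a median of -0.14. Beside H2BC14, H2BC10 gave 7.58 and 7.72 with RWF, against 8.04 and 8.17 with vehicle (log2 difference -0.45, SE 0.11, limma adjusted p = 0.092). Both of its RWF arrays in this line were below the vehicle arrays, while in BPH-1 cells, at 7.88 and 7.59 against 7.96 and 7.85, they overlapped. H2BC13, H2BC3 and H2BC15 had both RWF arrays below both vehicle arrays, with differences of -0.28, -0.23 and -0.20. H2BC12, whose gene also gives polyadenylated mRNA, differed by -0.18 with overlapping arrays. The clusters of H2BC11 differed by -0.07 (TC06001385) and -0.11 (TC06001386). The exceptions with positive differences were H2BC21 and HIST2H2BF (named H2BC18 in RefSeq). The arrays of HIST2H2BF overlapped, at a difference of 0.10. A second cluster, TC01003172, annotated to HIST2H2BF and HIST2H3PS2, differed by -0.39 with both RWF arrays lower (limma adjusted p = 0.072). HIST2H2BF thus has no single direction with RWF in these values.

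H2BC21 had the highest difference of the 17 H2B clusters in both lines. It gave 8.73 and 8.07 with RWF in WPMY-1 cells, against 7.85 and 7.98 with vehicle, and 7.17 on both RWF arrays in BPH-1 cells, against 6.97 and 6.73 with vehicle. In each line both RWF arrays were the higher pair, although WPMY-1 RWF replicate 1 stood well above replicate 2. Neither difference was called, at 0.49 in WPMY-1 cells (SE 0.19, limma adjusted p = 0.22) and 0.32 in BPH-1 cells (SE 0.19, limma adjusted p = 0.98). With 1 array left out they ran between 0.16 and 0.82 in WPMY-1 and between 0.20 and 0.44 in BPH-1 cells. H2BC21 is a core histone gene on chromosome 1 known to give polyadenylated mRNA too.

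Among the 10 H2A clusters, 6 differences in WPMY-1 cells were negative, the median was -0.12, and no cluster was called. H2AC13 had the lowest difference in both lines. It gave 7.54 and 7.74 with RWF in WPMY-1 cells, against 8.00 and 7.88 with vehicle (log2 difference -0.30, limma adjusted p = 0.14). In BPH-1 cells it gave 7.78 and 7.80 with RWF, against 8.01 and 8.05 with vehicle (log2 difference -0.24, limma adjusted p = 0.78). The RWF pair was the lower one each time. H2AC20 and H2AC21, core histone genes on chromosome 1, differed by -0.14 and -0.11 in WPMY-1 cells. H2AC1, an H2A gene of the testis, had the highest H2A difference in this line, at 2.79 and 2.85 with RWF against 2.63 and 2.59 with vehicle, values near the bottom of the scale. Of the H4 clusters, H4C3 gave 9.91 on both RWF arrays of WPMY-1 cells, against 10.15 and 10.08 with vehicle (log2 difference -0.20, limma adjusted p = 0.21), and H4C7 differed by 0.12.

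In BPH-1 cells none of the 35 clusters was called, and 0.04% of all clusters were called there in either direction. At an unadjusted p under 0.05, limma left H2AC6 with a positive difference (2.74% over all clusters), and H1-5, H2AC13 and H2BC13 with negative ones (3.09%). The median was -0.02, against -0.01 over all clusters, and no difference reached 1.3-fold. Both RWF arrays were above both vehicle arrays in 4 clusters, against 15.3% over all clusters, and below both in 10, against 19.1%. H2AC6, an H2A gene that also gives polyadenylated mRNA, gave 5.99 and 5.88 with RWF, against 5.78 and 5.51 with vehicle (log2 difference 0.29, SE 0.11, limma adjusted p = 0.80). Its RWF arrays were the higher pair in BPH-1 cells and overlapped with vehicle in WPMY-1 cells, at 7.18 and 7.37 against 7.31 and 7.17. H2BC13 gave 5.53 and 5.58 with RWF, against 5.74 and 5.75 with vehicle (log2 difference -0.19, limma adjusted p = 0.81), the lowest H2B difference in this line.

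Whether RWF acted differently in the lines was tested as an interaction, the RWF difference in WPMY-1 minus that in BPH-1. No histone cluster was called (0.00592% of all clusters were), and the lowest adjusted p was 0.38, for H2BC14, with an interaction of -0.60. At an unadjusted p under 0.05 limma left H2BC14 and H1-4, whose interaction was -0.32 (limma adjusted p = 0.50). The falls of H2BC14 and H1-4 in WPMY-1 cells were thus not shown to differ from their RWF differences in BPH-1 cells. The median interaction of the 35 clusters was -0.09, against 0.04 over all clusters, and 25 of 35 were below 0. It was -0.04 without BPH-1 RWF replicate 1, and with median centring it was -0.16 (28 of 35 below 0), against -0.02 over all clusters.

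**Figure D2:**
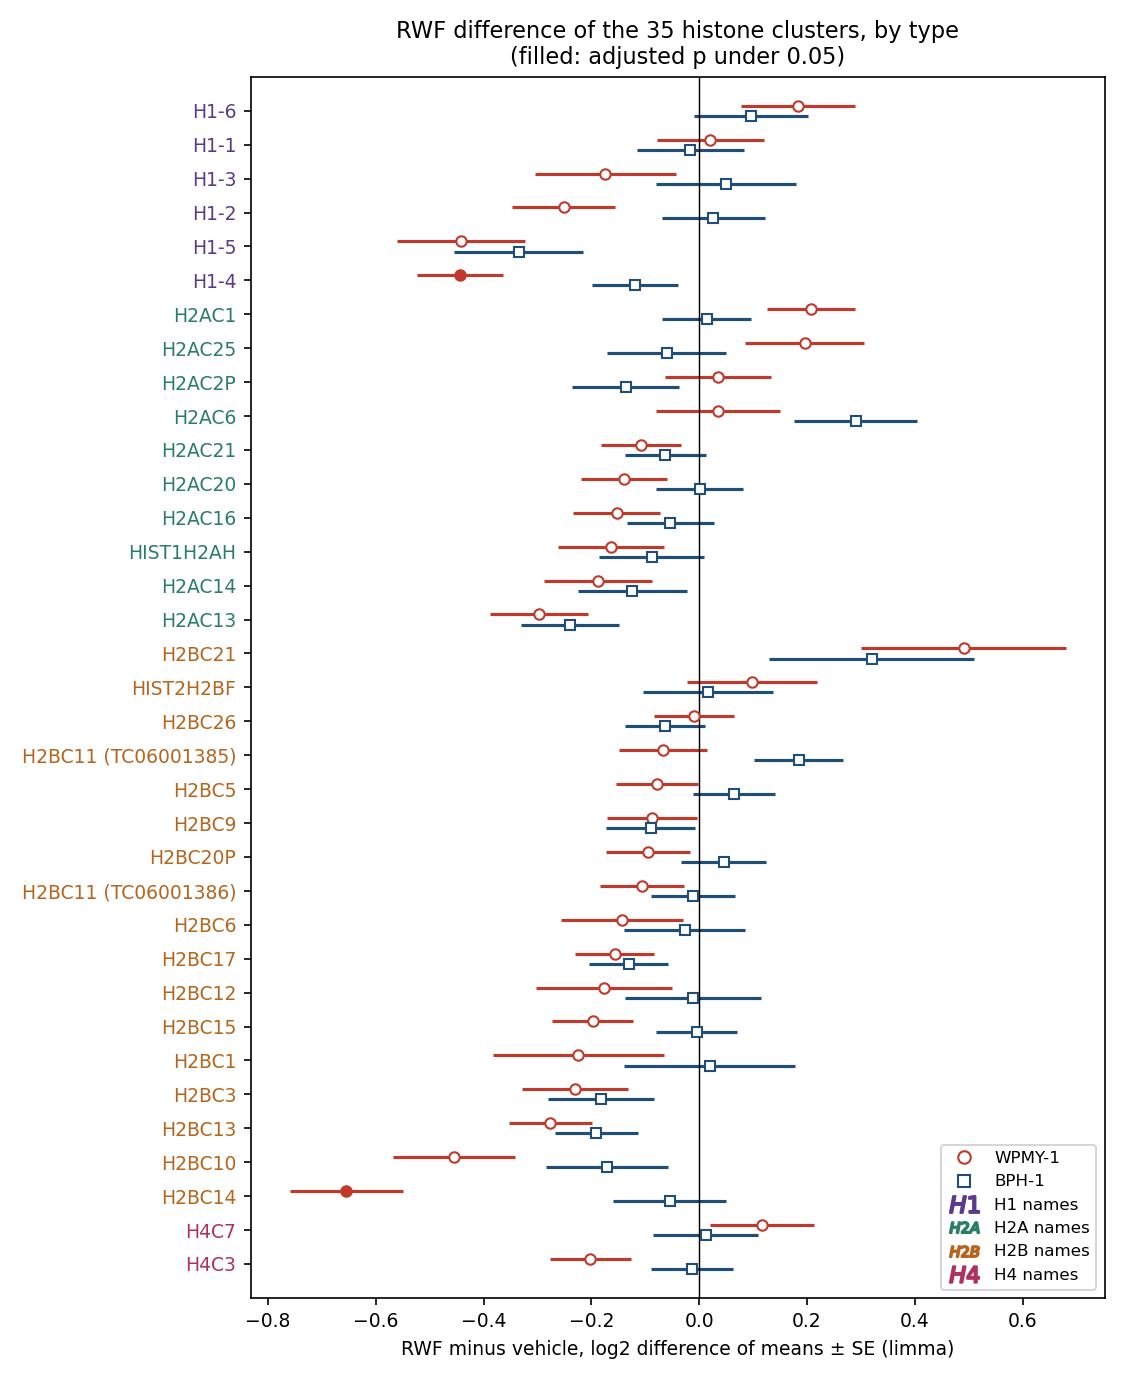
RWF minus vehicle, as the log2 difference of means with its limma SE (horizontal axis), for the 35 histone clusters in WPMY-1 (circles) and BPH-1 cells (squares), grouped by type. Filled marks have an adjusted p under 0.05, and these are H2BC14 at -0.65 and H1-4 at -0.44 in WPMY-1 cells, where 26 of 35 circles lie below 0.

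Many H2A and H2B genes stand back to back, with 1 stretch of DNA between their starts serving as promoter for both. In 5 such pairs, with 215 to 245 bases between the starts, both genes had a cluster annotated to 1 symbol and a RefSeq promoter window. Pairs with a gene read only by a cluster of several genes were left out. In WPMY-1 cells the pair H2BC13 and H2AC13 had nearly equal differences, -0.28 and -0.30. The pair H2BC14 and H2AC14 had differences of -0.65 and -0.19, and H2BC21 and H2AC20 lay on opposite sides of 0, at 0.49 and -0.14. H2BC26 and H2AC25 differed by -0.01 and 0.20, and the testis genes H2BC1 and H2AC1 by -0.22 and 0.21. The neighbours H2BC12 and HIST1H2AH, the second without a window, differed by -0.18 and -0.16. No test was made within pairs. The clusters whose promoter held the octamer had a median difference of -0.14 (18 clusters), and those without it -0.17 (13 clusters). No H1 or H4 window held the octamer, so octamer and histone type are partly tied in this split, and their parts were not tested.

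Between the untreated lines, 10 of the 35 clusters differed, in both directions. In vehicle WPMY-1 cells 5 were higher than in vehicle BPH-1 cells (7.82% of all clusters were) and 5 lower (8.82%). The median difference was -0.02, against -0.01 over all clusters. The higher ones were H2AC6, H2BC21, 1 of the clusters of H2BC11, HIST2H2BF and H1-1, and the lower ones were H2AC14, H2BC14, H2BC26, H2BC9 and H1-4.

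H2AC6 gave 7.31 and 7.17 in vehicle WPMY-1 cells, against 5.78 and 5.51 in vehicle BPH-1 cells. The lines did not come near each other, and the difference was 3.02-fold (log2 1.60, SE 0.11, limma adjusted p = 3.43e-05). H2BC21 gave 7.85 and 7.98 in vehicle WPMY-1 cells, against 6.97 and 6.73 in vehicle BPH-1 cells, a 2.09-fold difference (log2 1.06, SE 0.19, limma adjusted p = 0.0053). For H2BC11 the clusters disagreed. TC06001385 gave 7.64 and 7.61 in vehicle WPMY-1 cells, against 6.58 and 6.42 in vehicle BPH-1 cells (log2 difference 1.12, SE 0.08, limma adjusted p = 3.77e-05), while TC06001386 gave 8.39 and 8.41 against 8.45 and 8.47 (log2 difference -0.06, limma adjusted p = 0.69). The gene thus has no single direction between the lines in these values.

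Of the clusters that were lower in WPMY-1 cells, H2AC14 gave 2.49 and 2.60 in vehicle WPMY-1 cells, against 3.11 and 3.002 in vehicle BPH-1 cells (log2 difference -0.51, SE 0.10, limma adjusted p = 0.0087), all of them low values. H2BC14 differed by -0.43, H2BC26 by -0.37, H2BC9 by -0.34 and H1-4 by -0.30, while HIST2H2BF and H1-1 were higher by 0.50 and 0.36. Means of HIST2H2BF and H1-1 over the 8 arrays, 4.94 and 4.98, were close to the median of all values, 4.55. Background can thus be part of their values. H2AC6, H2BC21 and H2BC11 (TC06001385) kept their calls without any 1 of the 8 arrays. The other 7 lost theirs without BPH-1 vehicle replicate 1 or without WPMY-1 vehicle replicate 1, which left 3 called clusters each time, and 5 were called without BPH-1 vehicle replicate 2. H1-4 also lost its call with median centring or quantile normalization. H1-3 (-0.30), H4C3 (-0.19) and H4C7 (0.12) were not called.

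**Figure D3:**
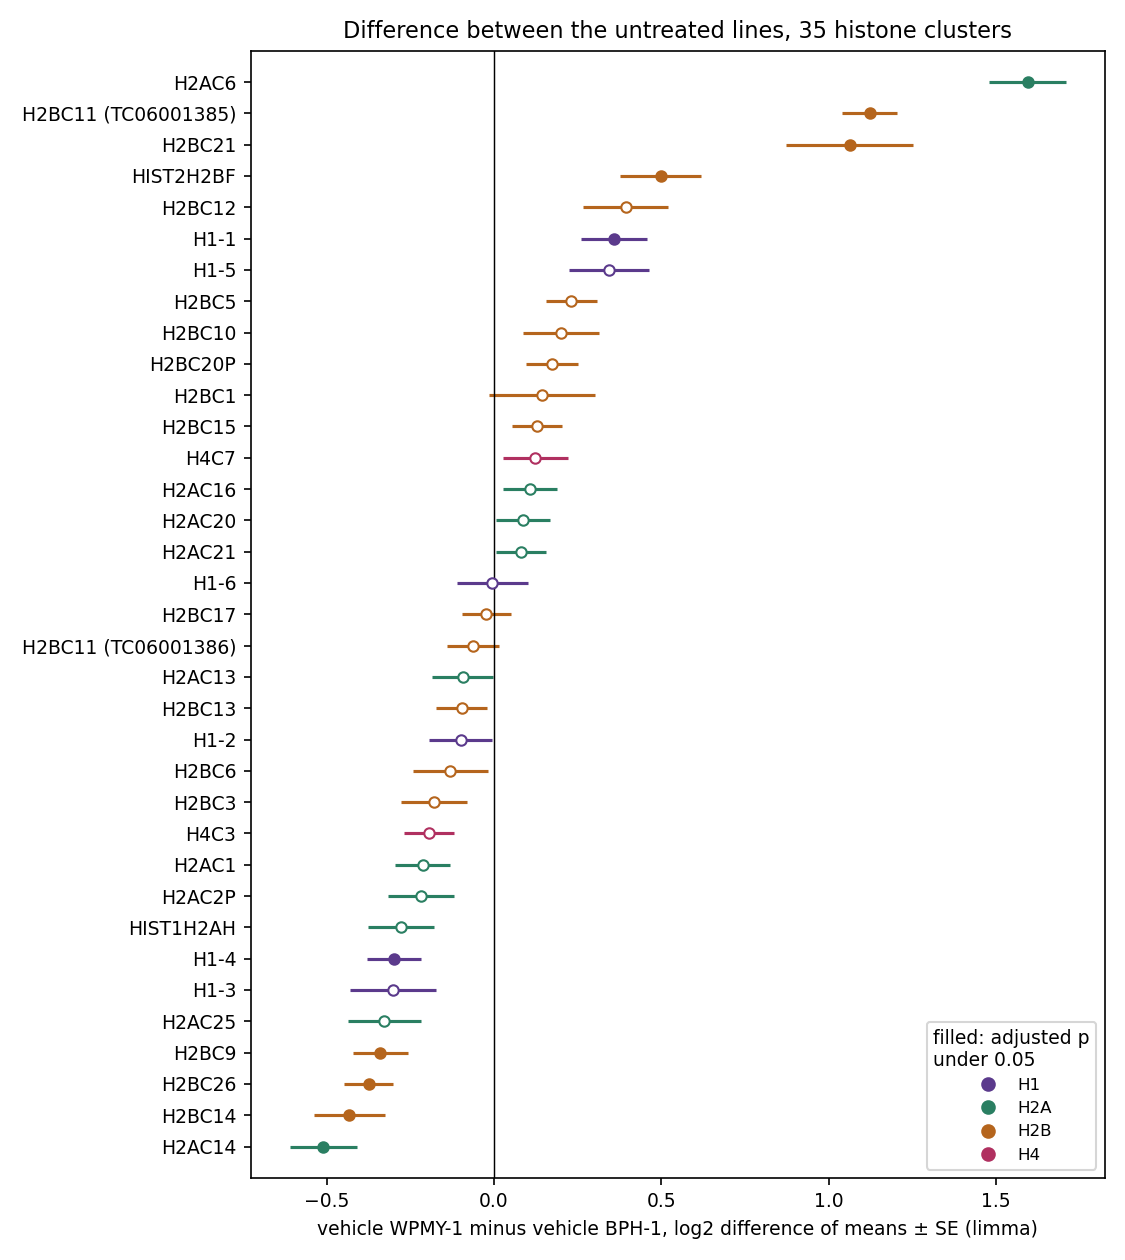
Vehicle WPMY-1 minus vehicle BPH-1, as the log2 difference of means with its limma SE (horizontal axis), for the 35 histone clusters in order of the difference and coloured by type. Filled marks have an adjusted p under 0.05, with H2AC6 at 1.60, H2BC11 (TC06001385) at 1.12 and H2BC21 at 1.06 apart from the rest.

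The 35 clusters annotated to several histone genes cover H3 and most of H4. Each may read 1 locus or several, since the annotation lists all its genes without saying which, so no value is given to a single gene. There were 7 for H2A, 3 for H2B, 12 for H3 and 13 for H4. With RWF in WPMY-1 cells their medians were -0.19, -0.09, -0.03 and 0.01, against 0.04 over all clusters. The only one called was TC06000174, annotated to 10 H3 genes, beside 0.625% higher and 0.905% lower over all clusters. It gave 6.20 and 6.01 with RWF, against 5.53 and 5.54 with vehicle (log2 difference 0.57, SE 0.10, limma adjusted p = 0.034), so both RWF arrays were higher. Leaving out any 1 of 6 arrays, all but the BPH-1 RWF arrays, lost this call, with differences between 0.48 and 0.67. With WPMY-1 fitted alone the call was lost too. In BPH-1 cells the same cluster gave 4.96 and 5.12 with RWF, against 4.89 and 4.99 with vehicle, and the arrays overlapped.

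The 13 H4 clusters were all annotated to the same 14 genes, yet their RWF differences ran between -0.33 and 0.48 in WPMY-1 cells and between -0.19 and 0.67 in BPH-1 cells. TC01001173 gave 8.90 and 8.78 with RWF in WPMY-1 cells, against 8.50 and 8.24 with vehicle, and 7.81 and 8.21 with RWF in BPH-1 cells, against 7.37 and 7.30 with vehicle. Its RWF arrays were the higher pair in each line, and its differences of 0.48 and 0.67 had limma adjusted p-values of 0.14 and 0.28. TC01003192, with differences of 0.40 and 0.66, gave nearly the same picture. TC06001424 gave 10.38 and 10.48 with RWF in WPMY-1 cells, against 10.79 and 10.72 with vehicle, with the RWF arrays lower (log2 difference -0.33, limma adjusted p = 0.083).

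The untreated lines also split clusters of 1 annotation. Of the 13 H4 clusters, 4 were higher and 5 lower in vehicle WPMY-1 than in vehicle BPH-1 cells, and of the 12 H3 clusters, 2 were higher and 4 lower, beside 7.82% higher and 8.82% lower over all clusters. TC06001427, annotated to 10 H3 genes, gave 8.58 and 8.69 in vehicle WPMY-1 cells, against 10.36 and 10.41 in vehicle BPH-1 cells (log2 difference -1.75, limma adjusted p = 6.01e-06). TC06001428, of the H4 clusters, gave 5.67 and 5.59 against 7.24 and 7.12 (log2 difference -1.55), and TC06001355, with the same 14 genes, gave 8.76 and 8.27 against 6.74 and 6.51 (log2 difference 1.89). These 3 calls held without any 1 of the 8 arrays. Clusters with 1 annotation thus lay on opposite sides of 0, and no direction is given for H3 or H4 as a type.

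**Figure D4:**
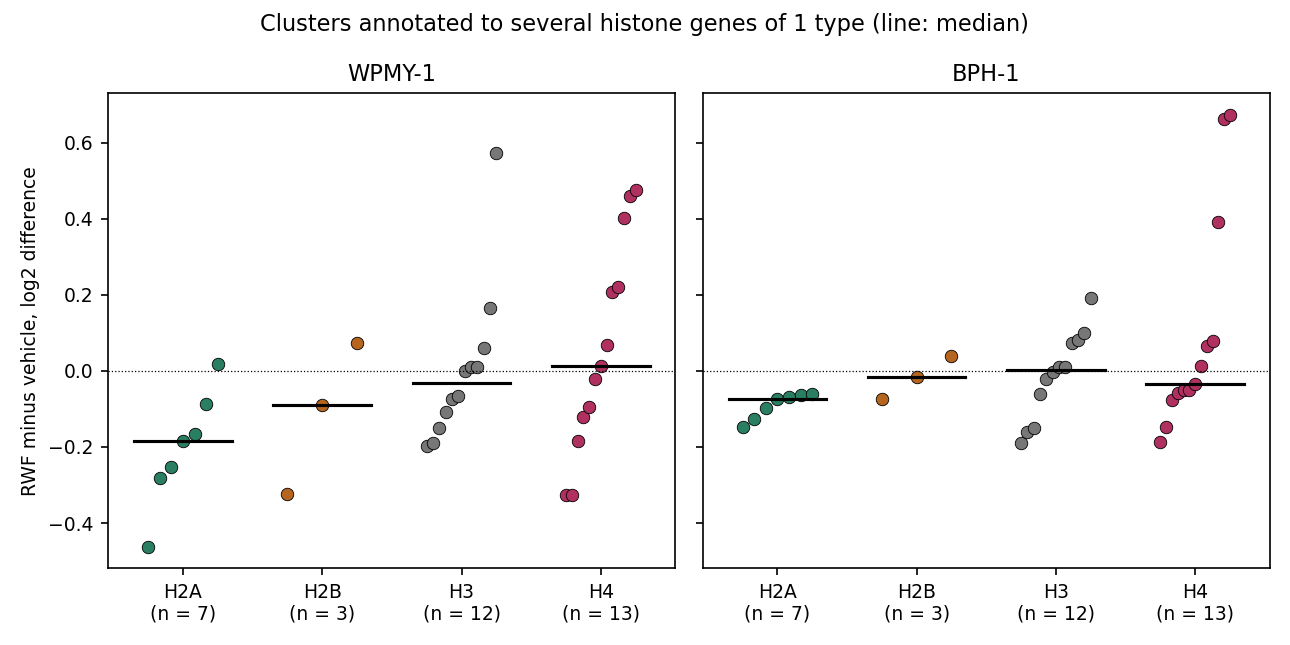
RWF minus vehicle log2 difference (vertical axis) of the clusters annotated to several histone genes of 1 type, in WPMY-1 (left) and BPH-1 cells (right). Points are clusters and lines are medians. The 13 H4 points share 1 annotation and run between -0.33 and 0.48 in WPMY-1 cells.

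Genes that make, process and carry histones were read from 4 lists. With RWF, 0 of 24 measured genes of histone mRNA transcription and 3′ end processing were called by limma in either line, with 2 positive and 2 negative differences in WPMY-1 cells and 2 positive ones in BPH-1 cells at an unadjusted p under 0.05. Over all clusters these shares were 10.7% and 8.36% in WPMY-1 cells, and 2.74% positive and 3.09% negative in BPH-1 cells. SLBP, the stem-loop binding protein, differed by -0.02 in WPMY-1 and -0.04 in BPH-1 cells. NPAT, the cyclin E-CDK2 substrate that switches on histone transcription, differed by -0.03 and 0.12. HINFP, which activates H4 genes, differed by 0.25 and 0.19, CASP8AP2, a partner of LSM11 in 3′ end cutting, by -0.13 and 0.15, and LSM11, a part of the U7 snRNP that guides the 3′ cut, by -0.11 and -0.06. CDK2 (-0.38, limma adjusted p = 0.058) and CCNE1, cyclin E1 (0.47, limma adjusted p = 0.059), came nearest to a call in WPMY-1 cells, on opposite sides of 0, and were picked after their values were seen.

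Between the untreated lines, 3 of the 24 genes of this list were higher and 8 lower in WPMY-1 cells, beside 7.82% and 8.82% of all clusters. The called log2 differences, WPMY-1 minus BPH-1, were -0.87 for HINFP, -0.84 for CPSF2, a subunit of the cleavage complex, -0.77 for CCNE1, -0.76 for CCNE2 and -0.58 for MIF4GD, a partner of SLBP. TUT7, which adds uridines to histone mRNA, was higher with a difference of 0.41. LSM11 (0.46) was also higher and SLBP (-0.29) lower, and NPAT (0.39) and CASP8AP2 (-0.18) were not called.

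No measured gene of the other lists was called with RWF in either line: 0 of 8 replication-independent variants, 0 of 19 chaperones and assembly factors, and 0 of 28 S phase genes. The variant list also held H2AC25 and H2BC26, under their other names H2AW and H2BU1. They were counted among the clustered histone genes alone. In WPMY-1 cells, at an unadjusted p under 0.05, limma left 1 variant, 6 chaperones and 5 S phase genes with negative differences and 0, 2 and 2 with positive ones (8.36% and 10.7% of all clusters). In BPH-1 cells it left 0, 1 and 2 with negative differences and 0, 1 and 1 with positive ones (3.09% and 2.74%). The medians in WPMY-1 cells were -0.02, -0.09 and -0.08, against 0.04 over all clusters. Between the untreated lines, the variants MACROH2A2 (-1.77) and H2AX (-1.24) were lower in WPMY-1 cells, and H2AZ1 (0.44) and H2AZ2 (0.37) higher. H2AX is the variant phosphorylated at DNA breaks, H2AZ1 and H2AZ2 code for H2A.Z, and MACROH2A2 for a variant with a large non-histone domain. Of the chaperones 3 were higher, NAP1L1 (0.56), SSRP1 (0.49) and NAP1L4 (0.37), and 3 lower, HJURP (-0.69), SUPT16H (-0.46) and TONSL (-0.32). SSRP1 and SUPT16H are the subunits of FACT, which moves H2A-H2B dimers, and HJURP loads CENP-A. Of the 28 S phase genes 4 were higher and 10 lower (7.82% and 8.82% of all clusters). Among the lower ones were the helicase subunits MCM6 (-1.03) and MCM4 (-0.53), GINS2 (-0.49) and the cyclins CCNE1 and CCNE2, and among the higher ones CDC25A (0.51). CCNE1, CCNE2 and SLBP, all lower, were also counted in the list of histone mRNA transcription and 3′ end processing. The part of the S phase share of the cultures in the histone differences was not tested.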

How the data were processed

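RNA of 8 samples was measured on Affymetrix Human Transcriptome Array 2.0 chips. The authors deposited 1 table of log2 values, made with RMA according to the submitters' processing notes, which give no version. RMA subtracts background, puts the probe values of the arrays on 1 distribution and combines the probes of a cluster, so a shift shared by all genes would be partly removed. The cluster values still differed between arrays. With median centring, the median RWF difference over all clusters in WPMY-1 cells moved from 0.04 to -0.02. A cluster that reads near-identical histone copies can mix their signal.

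Genes were named from the platform annotation, which gives 1 symbol to 23781 clusters, several to 1543 and none to 42204. Pseudogenes were kept and counted apart. Every value column matched a label. All 8 arrays entered 1 fit of 4 groups in limma 3.58.1 under R 4.3.3 (two-sided, 4 residual and 4.34 prior degrees of freedom). The median residual SD was 0.096 for the histone clusters and 0.099 for all. The fit was tested on simulated data. Motifs were searched on both strands of the RefSeq windows. Plots used matplotlib 3.10.9 (Python 3.11.15). No genome was used here, and the build of the array annotation is not given in the sources used here.

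The histone genes, the 4 related lists, the markers and the motifs were chosen with earlier results of these data known. Named genes were those called in an RWF comparison or the interaction, the 3 brightest clusters of each type, the highest and lowest RWF and line difference of each type, up to 6 called genes of a list by smallest p, and SLBP, NPAT, HINFP, LSM11 and CASP8AP2. Naming of H2BC10, H2BC3, H2BC15, the other clusters called between the lines, the neighbour pairs, the several-gene clusters, CDK2 and CCNE1 followed a look at their values.

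The alternatives tried were other scalings (quantile normalization or centring on the median), dropping dim clusters (35701 stayed, above the table median of 4.55 on at least 2 arrays), variances with trend and robust settings, a replicate block, a separate fit of each line, equal rows counted once, 1 cluster per gene, the 1.3-fold cutoff, and fits that each lacked 1 array, which give a lone array the spread of the other groups.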

Additional observations from a re-analysis of the deposited data

Results flagged for a closer look

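For 2 of the 35 clusters the RWF pair was the higher one in BPH-1 cells and the lower one in WPMY-1 cells, with no overlap of arrays. Over all clusters, the RWF pair was the higher one in BPH-1 cells in 15.3% and the lower one in WPMY-1 cells in 19.2%. The share of all clusters with both was not counted, so these 2 are not set apart from other clusters. The first cluster of H2BC11 (TC06001385) gave 7.57 and 7.55 with RWF in WPMY-1 cells, against 7.64 and 7.61 with vehicle, and 6.72 and 6.65 with RWF in BPH-1 cells, against 6.58 and 6.42 with vehicle. The difference between the RWF differences, WPMY-1 minus BPH-1, was -0.251 and did not pass the interaction test (limma adjusted p = 0.60). The pseudogene H2BC20P gave 8.12 and 7.99 with RWF in WPMY-1 cells, against 8.17 and 8.14 with vehicle, and 8.04 and 8.01 with RWF in BPH-1 cells, against 8.00 and 7.95 with vehicle. Its difference between the RWF differences was -0.14 (limma adjusted p = 0.73). The second cluster of H2BC11 (TC06001386) had differences of -0.11 in WPMY-1 and -0.01 in BPH-1 cells.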

How the results depend on the processing

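The median RWF difference of the 35 histone clusters in WPMY-1 cells ran between -0.199 (median centring) and -0.0819 (quantile normalization) and the interaction median between -0.155 (median centring) and -0.0449 (without BPH-1 RWF replicate 1), while the medians near 0 changed sign, in BPH-1 cells without BPH-1 RWF replicate 2 (0.0172; -0.0745 without replicate 1) and between the lines with median centring (0.0273). The count called with RWF in WPMY-1 cells, 2, was 0 with each line fitted alone, 0 with quantile normalization, 3 with 1 cluster per gene (H2BC10 in addition, limma adjusted p = 0.0427), 5 at the 1.3-fold cutoff with no test, and between 0 and 1 when each array was left out in turn. With a replicate block it was 1 (H2BC14). The labels do not say whether same-numbered arrays belong together. Over all clusters, same-numbered deviations correlated at 0.125 in BPH-1 and -0.0256 in WPMY-1 cells, which cannot exclude a shared shift in single clusters. The interaction had 1 cluster (H2BC14) at the 1.3-fold cutoff, where limma called 0. The count between the lines, 10, ran between 3 and 11 with arrays left out, was 14 with 1 cluster per gene, where fewer clusters were tested, and 9 with the replicate block, which lost H1-4. Of 698 values of single named clusters under an alternative, 631 kept their direction and side of the threshold, 46 lost a call, 21 changed sign without being called, and 0 called ones changed sign. This tally covered results that were called on all 8 arrays or picked by the naming rules. It left out H2BC10, which gained a call with 1 cluster per gene, and the line difference of H2BC12, which gained one with median centring. With 2 arrays a group and no detection call, small changes of low clusters cannot be told from background. This holds for H2BC1, H4C7, H2AC1, H2AC14, H1-3 and H1-5, whose means were under the table median of 4.55. Clusters close to that median, such as HIST2H2BF and H1-1, may be affected too. The table shows no probes, so sharing between near-identical histone genes was not tested.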
